A study of Oryza sativa Indica Group with 6 samples.

Results

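Transcript clusters of the rice array were examined whose signal divided the 6 seedling samples in a way that cut across genotype. A transcript cluster is the unit of the Affymetrix Rice (Cn) Gene 1.0 ST array, a set of probes summarised to 1 signal. For each cluster the gap was taken as the lowest log2 signal among wild-type replicates 1 and 2 and overexpression replicate 1, minus the highest among wild-type replicate 3 and overexpression replicates 2 and 3. A gap of at least 0.6 log2, a 1.52-fold separation, was met by 161 of 41770 clusters (0.385%). Of these 55 were paired with no gene in the platform table and 8 with several, and both kinds were set aside. The pair of cyclin genes that remained, CYCB2-1 with a gap of 0.63 and CYCB2-2 with 0.99, were left out by name. The members were thus 96 clusters of 94 genes, out of 15299 clusters of 14662 genes that the table pairs with 1 gene each.

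The wild-type control was the indica rice cultivar MR219, and the overexpression group was the same cultivar made to overexpress Abp57, grown from T3 seed of plants transformed with Agrobacterium. The labels and methods name no promoter for the transgene, and no cluster is named Abp57 in the gene tables used here, so its level was not checked. Both groups were seedlings of 10 days grown on MS medium and taken whole, with 3 biological replicates per genotype, each of at least 3 seedlings. The arrays are called WT1, WT2 and WT3 and OE1, OE2 and OE3 below. The signals of all 6 arrays chose the members, so the difference between the arrays on either side of the gap is a description and was not tested.

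Growing seedlings divide cells in the tips of shoot and root. A cell licenses and copies its DNA in S phase, pulls the copies apart on a spindle of microtubules, and builds the new wall on the phragmoplast, a microtubule and actin array that kinesins organise. Enlarging daughter cells then draw on sucrose cleavage and on the synthesis of wall polysaccharides. The platform table gives 79 of the 94 member genes only as a locus number, and no product is stated for these in the tables used here. The other 15 genes, with 16 clusters, carry a symbol and are all described below, grouped by role.

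The label of whole seedlings was checked against leaf and root markers. RBCS, the small subunit of Rubisco, had log2 signals from 11.66 to 13.05, and the root patterning genes SCR1 and SHR1 had 7.06 to 7.64 and 5.08 to 5.61. PIN9, an auxin efflux carrier of the root, had 2.78 to 4.08, below the lower quartile of the mean signals of clusters paired with 1 gene. The root part of the label was thus not settled by these markers. The number of arrays limits the precision. In whole seedlings fewer cells of a type and less RNA of a gene per cell cannot be told apart.

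At the median the 96 members lay on 3 levels. The median deviation from a cluster's own mean over the 6 arrays was 0.68, 0.57 and 0.70 log2 on WT1, WT2 and OE1. It was -0.41 and -0.38 on OE2 and OE3 and -1.18 on WT3. WT3 was the lowest of the 6 arrays for 89 members (92.7%), OE2 for 5 and OE3 for 2. Among the 1870 clusters paired with 1 gene that had any gap above 0 (12.2% of 15299, while 10.8% had the opposite order), WT3 was lowest for 62.4%, and among all 15299 for 22.3%. The 7 members with another lowest array were LOC4347797, LOC4349078, LOC4340095, LOC4341272, LOC4334623, LOC4351944 and LOC4340442.

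**Figure D1:**
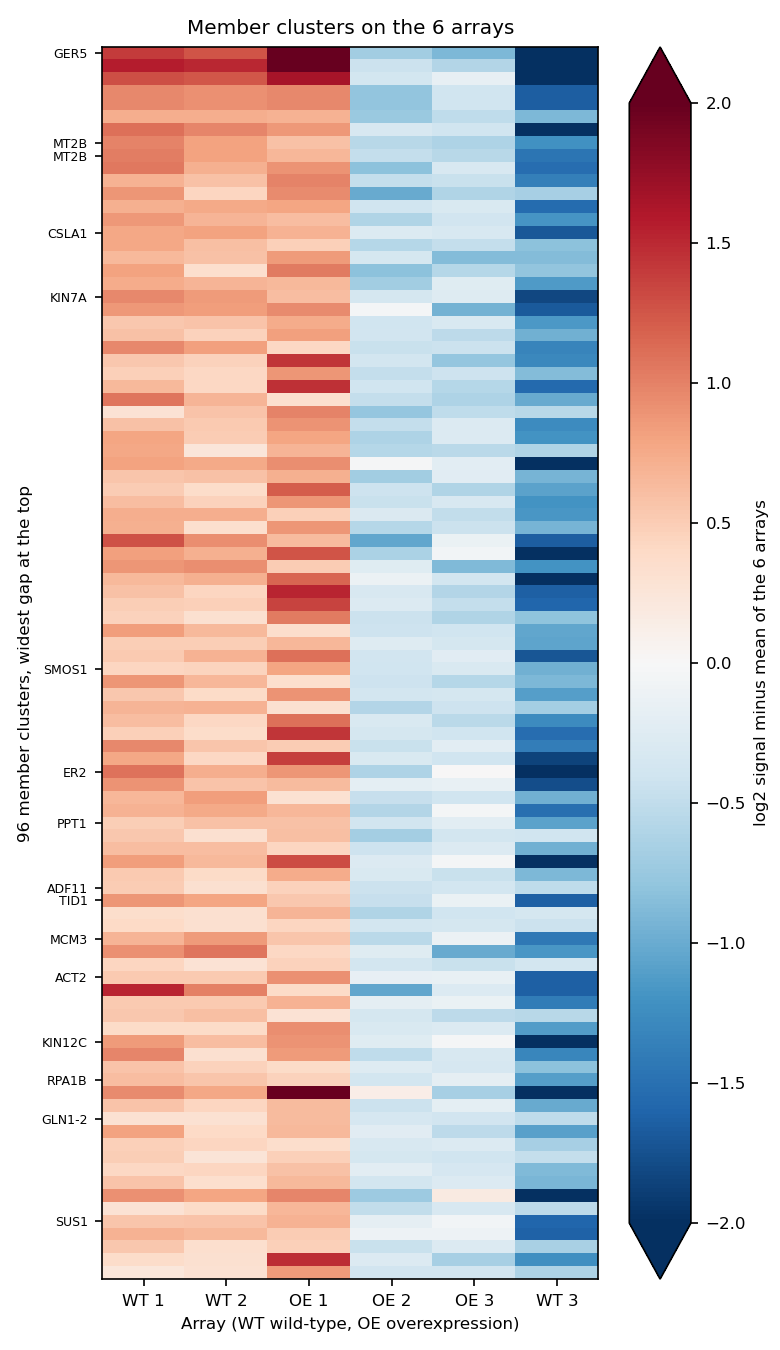
Each row is 1 of the 96 member clusters, ordered from the widest gap (1.95 log2) to the narrowest (0.60), and each column is an array. Colour gives the log2 signal minus the mean of the 6 arrays, cut at 2 in either direction, and the WT3 column is the lowest for 89 members, with a median of -1.18 against -0.41 and -0.38 on OE2 and OE3.

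The gap itself had a median of 0.74 log2 and was 1 log2 or more for 13 members. Most of the list lay near the threshold, with 67 members between 0.6 and 0.8. Just inside it were LOC4341044, LOC9266196 and LOC4331715, all with a gap of 0.60. Just outside lay LOC4342417 and LOC4342196 with 0.60 and LOC4342941 with 0.59. The whole range over the 6 arrays was 0.85 to 6.13 log2 with a median of 2.09, against a median of 0.64 for all clusters paired with 1 gene. WT1 and WT2 were close to each other, with a median distance of 0.12 log2 in the members and 0.16 in all paired clusters. OE2 and OE3 lay 0.17 apart at the median in both.

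GER5, a germin-like protein gene also listed as GLP1, had the widest gap. Germin-like proteins are glycoproteins of the cell wall space. GER5 had log2 signals of 11.26, 11.12 and 12.05 on WT1, WT2 and OE1, 9.17 and 8.97 on OE2 and OE3, and 6.59 on WT3. Its highest and lowest arrays differed 43.9-fold, and the gap amounted to 3.87-fold. The other measured GER genes did not share this order. GER4 had 9.75, 9.95 and 8.88 on WT1, WT2 and OE1 against 9.61, 9.48 and 8.21 on OE2, OE3 and WT3. GER3 ran the other way for WT3, with 7.16 there and 3.03 to 5.48 on the remaining arrays. None of the 5 other GER genes had a gap above 0, as was so for most clusters paired with 1 gene (12.2% had one). Here and below, the measured genes of a family are those with a cluster paired with 1 gene and a matching symbol or synonym. Family genes listed without such a name are not counted.

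LOC4330227 followed GER5 closely. It had 11.43, 11.36 and 11.90 on WT1, WT2 and OE1, 9.43 and 9.28 on OE2 and OE3, and 5.77 on WT3. This range of 6.13 log2 was the widest of all 15299 clusters paired with 1 gene. LOC4343986 had 8.21, 8.17 and 8.58, then 6.55 and 6.77, then 3.28 in the same order of arrays. In both genes the step from OE2 and OE3 down to WT3, 3.58 and 3.38 log2, exceeded the gap that defines the members.

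The next genes by gap had smaller steps. LOC4349785 is measured by a pair of clusters that hold identical signals, 6.71, 6.66 and 6.71 on WT1, WT2 and OE1, 4.96 and 5.34 on OE2 and OE3, and 4.09 on WT3, so they count as 1 measurement. LOC4340766 had 6.60, 6.59 and 6.57 against 5.13, 5.37 and 4.97, with 3 nearly equal signals above its gap of 1.20. LOC4343262, LOC4324106, LOC4344001 and LOC4347797 had gaps of 1.18, 1.04, 1.04 and 1.03.

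MT2B, a metallothionein, encodes a small cysteine-rich protein that binds metal ions. Its first cluster had 10.14, 9.94 and 9.73 on WT1, WT2 and OE1, 8.58 and 8.53 on OE2 and OE3, and 7.92 on WT3. The second cluster gave 10.67, 10.45 and 10.32, then 9.18 and 9.10, then 8.19, so the gap was 1.15 and 1.14 log2 in the clusters of this gene, which may share sequence. MT4A was in the reverse of this position, with signals of at most 7.17 on WT1 and WT2, 8.26 on OE1 and 8.49 to 9.08 on OE2, OE3 and WT3. Of the 4 measured metallothionein genes, MT2B, a member by the rule, alone had a gap above 0. Most clusters paired with 1 gene had none (12.2% had one).

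Genes of DNA replication were represented by MCM3 and RPA1B. MCM3 is a subunit of the helicase that opens the DNA at origins, and had 6.28, 6.45 and 6.16 on WT1, WT2 and OE1, 5.07 and 5.48 on OE2 and OE3, and 4.17 on WT3. RPA1B, the large subunit of a complex that coats single-stranded DNA, had 5.25, 5.18 and 5.10, then 4.27 and 4.46, then 3.53. In both genes OE1 was the lowest of the 3 high arrays, by 0.21 and 0.12 log2 below the mean of WT1 and WT2.

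The remaining MCM genes had a gap above 0 (12.2% of clusters paired with 1 gene) but below the threshold. The gap was 0.57 for MCM2 and MCM5, 0.49 for MCM6 and 0.37 for MCM7. It was 0.02 for MCM9, which is not part of the core helicase. WT3 was the lowest array for all 6 measured MCM genes. It was lowest for 22.3% of clusters paired with 1 gene, and for 62.4% of those with a gap above 0. PCNA, the sliding clamp of the replication fork, had a gap of 0.28, from 7.44, 7.43 and 7.03 on WT1, WT2 and OE1 to 6.56, 6.75 and 6.14 on OE2, OE3 and WT3. The 5 genes of replication factor C, which loads that clamp, had no gap above 0, as was so for most clusters paired with 1 gene. RPA1A, the paralog of RPA1B, had its highest signal on WT3, at 6.84 against 6.20 to 6.75 elsewhere. All 7 measured histone H2B genes had a gap above 0, from 0.07 to 0.55 (12.2% of clusters paired with 1 gene have one). WT3 was lowest for only 2 of these H2B genes. It was lowest for 22.3% of all clusters paired with 1 gene and 62.4% of those with a gap above 0. These genes are close copies, and their clusters may not be independent.

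Cell division proper was represented by 2 kinesin genes. KIN7A, also listed as NACK, belongs to the kinesins that in tobacco drive the growth of the phragmoplast, and had 6.58, 6.48 and 6.24 on WT1, WT2 and OE1, 5.27 and 5.36 on OE2 and OE3, and 3.80 on WT3. KIN12C is of the kinesin-12 family, known from the phragmoplast in Arabidopsis, and had 6.54, 6.30 and 6.58, then 5.45 and 5.65, then 3.57. WT3 lay 1.98 log2 below the mean of OE2 and OE3 for KIN12C and 1.51 below it for KIN7A. Of 18 measured kinesin genes 8 had a gap above 0 (12.2% of all paired clusters), among them KIN10C with 0.56, KIN14K with 0.50 and KIN12F with 0.46. The other 10, such as KIN4A and KIN7F with -0.25 and -0.21, had overlapping sides.

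The list of dividing tissue markers, as far as measured, holds only genes already given above, so it is no second look at the data. Of its genes 8 were measured, MCM2, MCM3, MCM5, MCM6, MCM7, PCNA, KIN12C and KIN12F. Their median deviation was 0.68, 0.69 and 0.32 log2 on WT1, WT2 and OE1, -0.36 and -0.13 on OE2 and OE3, and -1.15 on WT3. All 8 had a gap above 0 (12.2% of clusters paired with 1 gene), though MCM3 and KIN12C are members by the rule itself. The list was also drawn up with earlier results of these data known, so the count is no independent support. The 4 measured leaf genes had medians between -0.24 on WT3 and 0.25 on OE1, and the 3 root genes between -0.31 on OE3 and 0.24 on WT1. The 6 endosperm and seed genes had 0.24 on WT3 and -0.21 to 0.19 elsewhere. The 3 shoot meristem homeobox genes had another order, with medians of 0.44, 0.37 and 0.07 on WT1, WT2 and WT3 and -0.41, -0.27 and -0.21 on OE1, OE2 and OE3. The part of tissue make-up in the members' order was not tested.

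**Figure D2:**
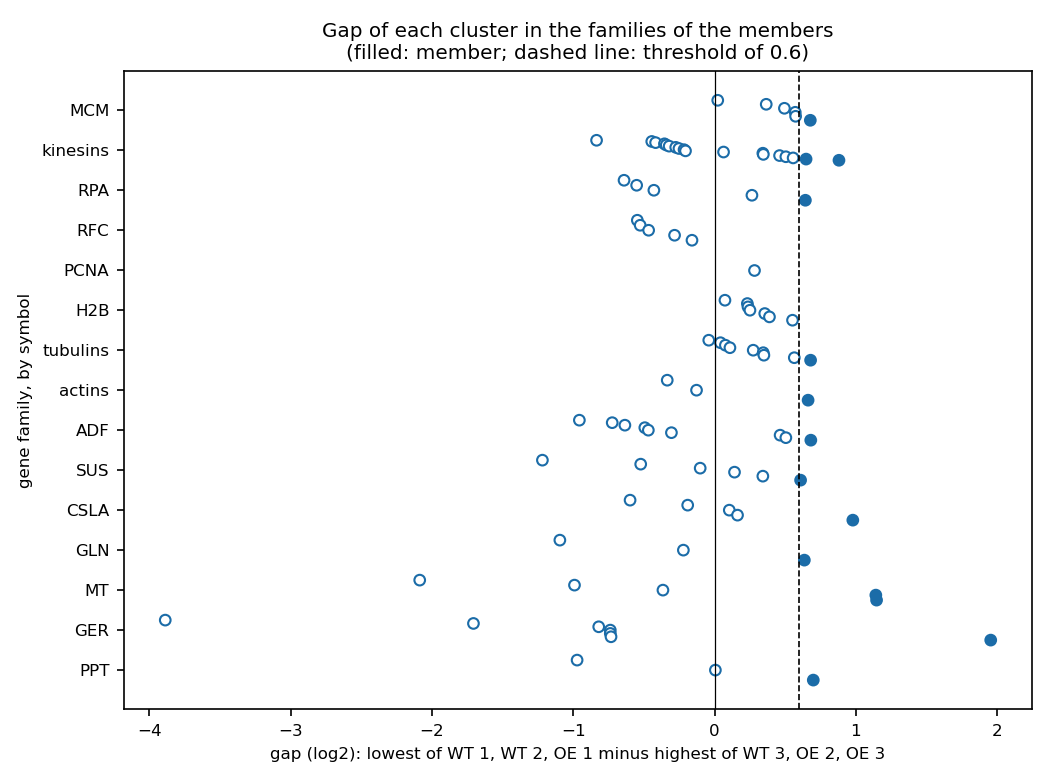
Each point is a transcript cluster of a family that holds a member or works with one in DNA replication, placed by its gap in log2, with families on the vertical axis and filled points for members. The MCM, H2B and tubulin points lie almost wholly above 0, while the ADF, MT and GER families spread to both sides, down to -3.89 for GER3.

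The cytoskeleton contributed an alpha-tubulin, an actin and an actin-severing factor. TID1, the alpha-tubulin, had 10.94, 10.85 and 10.60 on WT1, WT2 and OE1, 9.60 and 9.92 on OE2 and OE3, and 8.43 on WT3. Of the 9 measured tubulin genes 8 had a gap above 0, led by TID1 with 0.68 and the beta-tubulin TUBB1 with 0.56, and WT3 was lowest for 7. Over all clusters paired with 1 gene these shares were 12.2% and 22.3%. Among those with a gap above 0, WT3 was lowest for 62.4%, and TID1 is a member by the rule itself. TUBB1 had a signal of 6.68 on WT3 and 8.43 to 9.40 on the other arrays. The gamma-tubulin TUBG2, a part of the complex that starts microtubules, hardly varied, between 7.37 and 7.47.

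ACT2 had 7.44, 7.44 and 7.83 on WT1, WT2 and OE1, 6.75 and 6.77 on OE2 and OE3, and 5.28 on WT3. ACT1 and ACT3 also had their lowest signal on WT3, at 10.64 and 6.57, but OE3 was above WT1 and WT2 for both. ADF11, an actin depolymerizing factor, had 5.29, 5.09 and 5.24 against 4.35, 4.41 and 4.26. Here WT3 was level with OE2 and OE3, in contrast to ACT2. The other ADF genes were divided: ADF7 had gaps of 0.46 and 0.50 in its clusters, while ADF5 was highest on WT3 with 8.74.

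A pair of growth regulators belonged to the members. SMOS1 is a transcription factor of the AP2 type that promotes organ size in rice, and had 7.16, 7.16 and 7.50 on WT1, WT2 and OE1, 6.31 and 6.41 on OE2 and OE3, and 5.76 on WT3. ER2 is a receptor kinase of the ERECTA type, which in Arabidopsis promotes organ growth. Its signals were 8.26, 7.90 and 8.06, then 6.56 and 7.19, then 5.07. OE2 and OE3 lay 0.63 log2 apart for ER2 and 0.10 apart for SMOS1.

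Carbon and nitrogen metabolism gave SUS1, CSLA1, PPT1 and GLN1-2. SUS1, a sucrose synthase, had 11.45, 11.46 and 11.59 on WT1, WT2 and OE1, 10.71 and 10.85 on OE2 and OE3, and 9.32 on WT3. SUS2 followed it with gaps of 0.34 and 0.14 in its clusters. Of 5 measured SUS genes 2 had a gap above 0 (12.2% of clusters paired with 1 gene), while SUS6 and SUS3 had -0.52 and -0.10. SUS4 had its highest signal on WT3, at 9.41 against 8.19 to 8.58 on the other arrays.

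CSLA1 belongs to a family of mannan synthases, and had 8.77, 8.80 and 8.69 on WT1, WT2 and OE1, 7.71 and 7.67 on OE2 and OE3, and 6.30 on WT3. The table also lists it as CSLA9, a synonym it shares with LOC4341571, whose gap was 0.16. Of 5 measured CSLA genes 3 had a gap above 0 (12.2% of clusters paired with 1 gene), while CSLA4 and CSLA5 had -0.60 and -0.19. PPT1, which carries phosphoenolpyruvate into plastids, had 7.85, 7.94 and 7.94, then 6.98 and 7.15, then 6.29. PPT2 and PPT3 had gaps of 0.01 and -0.97. GLN1-2 is a cytosolic glutamine synthetase, with 7.67, 7.67 and 7.99 against 7.03, 6.98 and 6.85. For GLN1-2, as for ADF11, WT3 was close to OE2 and OE3. The plastid form GLN2 had its lowest signal on WT3 too, 8.86, but 10.04 to 10.69 on all others. GLN1-3 went the other way, with its highest signal on WT3, 6.53, and its lowest on OE1, 5.43.

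**Figure D3:**
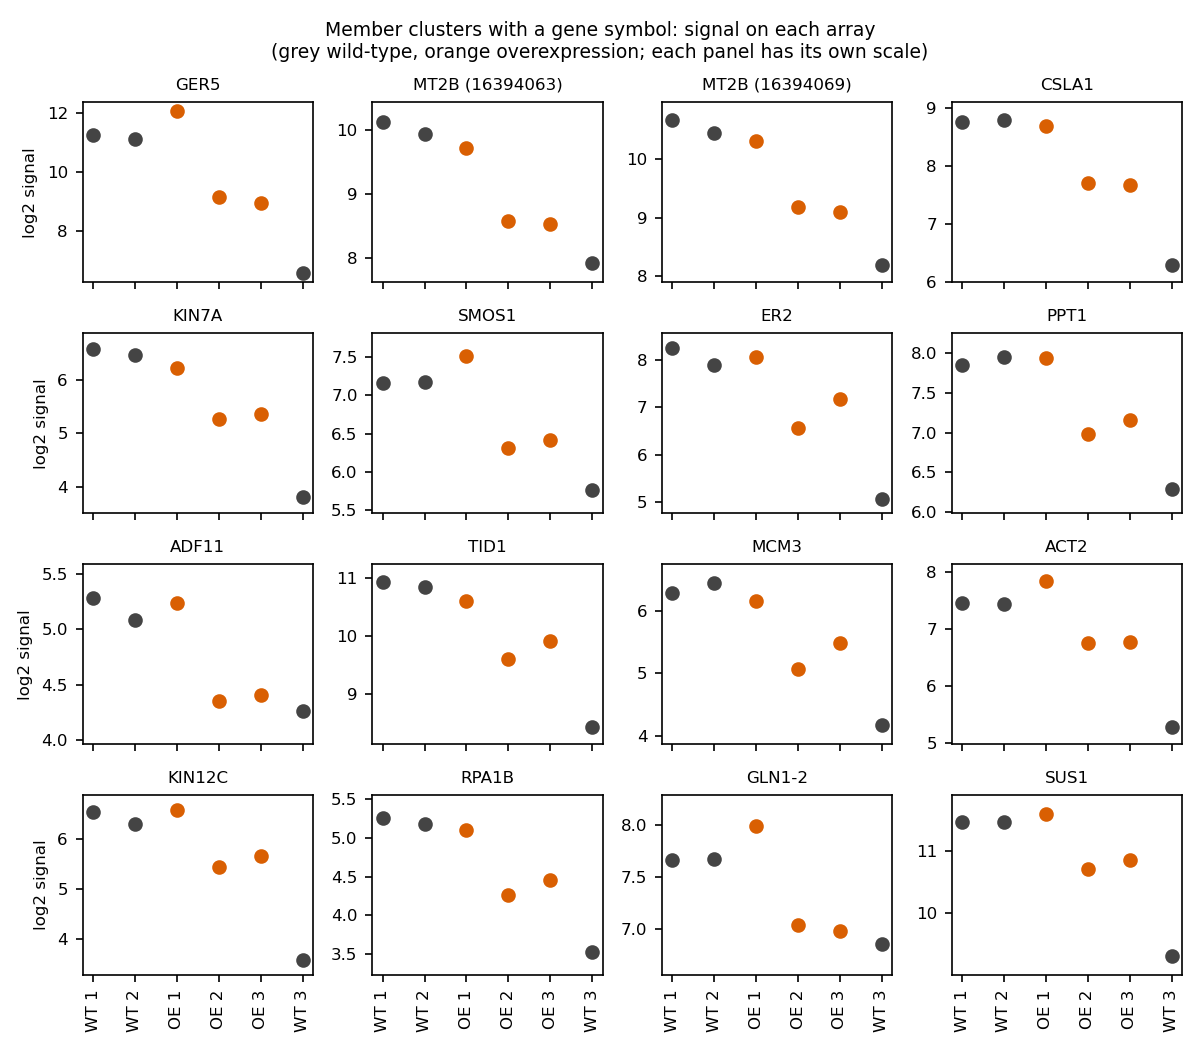
Each panel is 1 of the 16 member clusters with a gene symbol, with the log2 signal on the vertical axis and the arrays on the horizontal, grey for wild-type and orange for overexpression. In every panel WT1, WT2 and OE1 lie above the rest by at least 0.6 log2, as the rule requires, and WT3 is lowest, far below OE2 and OE3 for GER5 (6.59 against 9.17 and 8.97) and level with them for ADF11 (4.26 against 4.35 and 4.41).

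The rule fixes the order between the sides of the gap but not the order of the genotypes within a side. Among the low arrays, OE2 and OE3 were both above WT3 for 89 of 96 members, for 36.8% of all paired clusters and for 62.4% of those with a gap above 0. The difference of their mean from WT3 had a median of 0.77 log2 and ran from -0.14 to 3.58, against a median of -0.01 in all paired clusters. It exceeded 1 log2 for 34 members, or 35.4%, for 7.81% of the clusters with a gap above 0 and for 2.32% of all paired clusters. A wide spread over the arrays is built into the choice of members, so these shares are a description. Among the high arrays, OE1 was above both WT1 and WT2 for 54 members and below both for 30, or 56.3% and 31.3%. These shares were near those of the clusters with a gap above 0, 48.7% and 32.7%. The difference of OE1 from their mean had a median of 0.14 log2 and ran from -0.88 for LOC4327203 to 1.13, against a median of 0.03 in all paired clusters. Among the symbols, OE1 stood above WT1 and WT2 for GER5, SMOS1, ACT2, KIN12C, GLN1-2 and SUS1. It stood below both for MT2B, CSLA1, KIN7A, TID1, MCM3 and RPA1B, and between them for ER2, PPT1 and ADF11. These are single arrays set against each other, with no test.

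**Figure D4:**
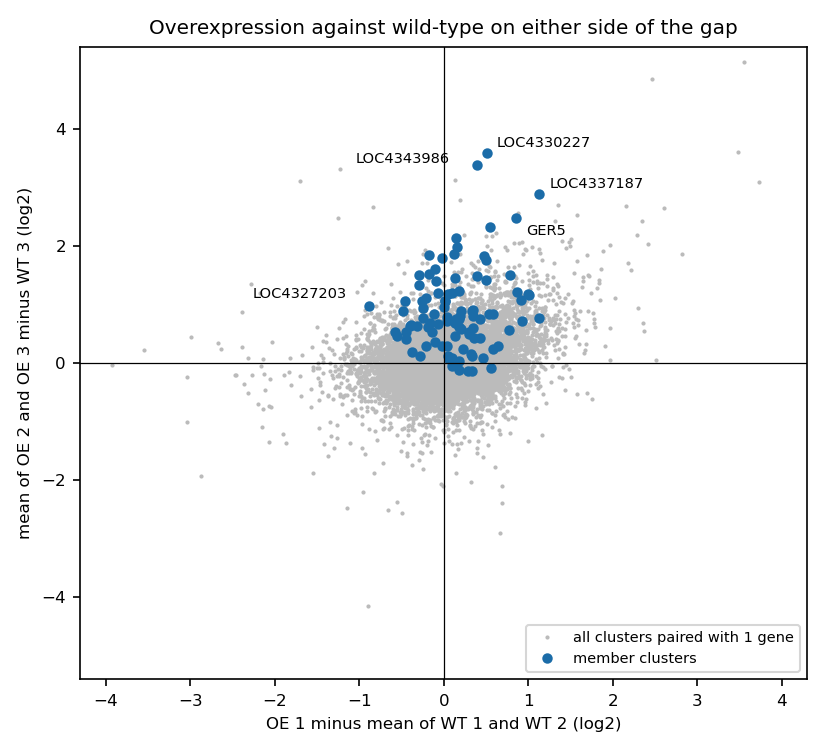
The horizontal axis gives OE1 minus the mean of WT1 and WT2, and the vertical axis the mean of OE2 and OE3 minus WT3, both in log2, with grey points for all 15299 clusters paired with 1 gene and blue points for the 96 members. The members spread to both sides of 0 along the horizontal axis (median 0.14) and lie mostly above 0 on the vertical axis (median 0.77, up to 3.58 for LOC4330227).

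The study's own comparison, overexpression against wild-type, was fitted for every cluster with limma on the 6 arrays. The rule places 2 wild-type arrays and 1 overexpression array on the high side, and so tends to lower this difference. It also splits each genotype across the gap, which widens the spread within genotypes and makes a call hard to reach. The counts of 0 members below are thus largely set by the rule, and nothing is read from them. No member passed a fold over 2 with an unadjusted p under 0.05 in either direction, while 0.335% of all 41770 clusters were called higher and 0.172% lower. Also 0 members passed an adjusted p under 0.05 (0.0144% of all clusters) or an unadjusted p under 0.05 (6.88%) by limma, and 0 passed the unadjusted p by the unpaired test of the study's methods. The lowest adjusted p among the members was 0.843 by limma. The members had a median log2 difference of -0.017 and all clusters one of -0.030. Of the 96 members 52 (54.2%) were lower in the overexpression mean. This share was 49.0% for all paired clusters and 59.0% for those with a gap above 0, so nothing is read from it.

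The differences of single members were small beside their errors. LOC4337187 had the highest, 0.96 (standard error 1.09), with 10.29, 10.12 and 6.20 on WT1, WT2 and WT3 and 11.33, 9.48 and 8.68 on OE1, OE2 and OE3. LOC4327203 had the lowest, -0.61 (0.75). GER5 had 0.41 (1.29), KIN12C 0.42 (0.72), MCM3 -0.06 (0.57) and KIN7A 0.00 (0.68). The spread within genotypes, taken as the pooled standard deviation (SD, n = 3 per genotype), had a median of 0.92 log2 over the members and 0.21 over all clusters, a size the rule itself imposes. None of the 8 dividing tissue markers passed either, with differences from -0.36 for MCM6 to 0.42 for KIN12C.

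**Figure D5:**
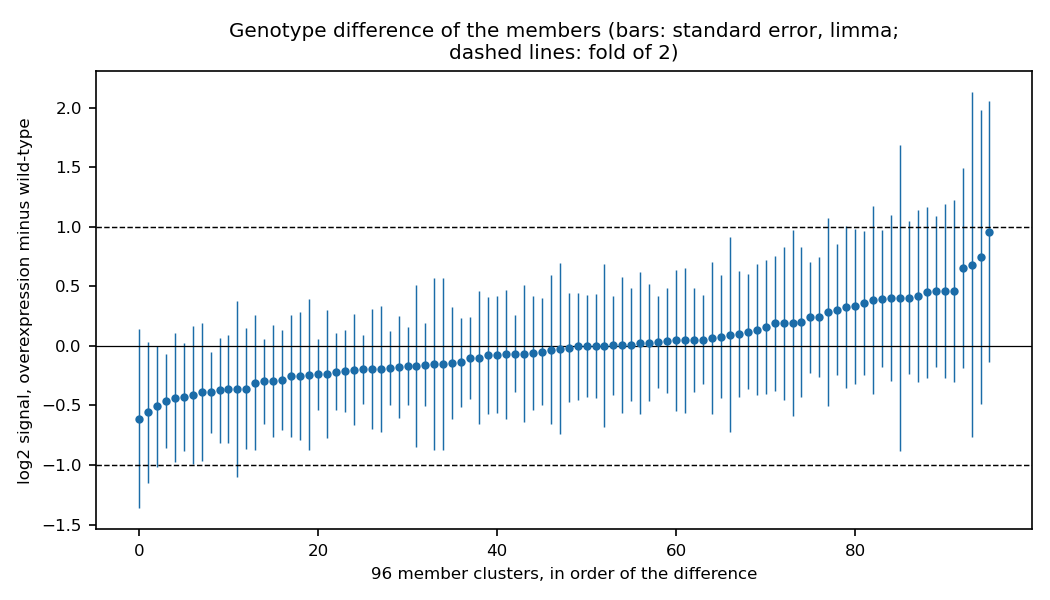
Each point is the log2 difference of 1 member, overexpression minus wild-type, ordered by size, with its standard error from limma (3 arrays per genotype) and dashed lines at a fold of 2. The differences run from -0.61 to 0.96, none reaches a fold of 2, and their median is -0.017.

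Without WT3 the genotype comparison changed, since both wild-type arrays that were left then lay on the high side. Then 8 member clusters of 7 genes were called lower in overexpression at fold over 2 and unadjusted p (0.469% of all 41770 clusters in the same fit), with 0 at an adjusted p under 0.05 by limma. With array weights 2 members were called lower (0.292% of all clusters). Since the rule used these signals, nothing is read from either count. The 8 without WT3 were the MT2B clusters with -1.10 and -1.03, LOC4327203 with -1.58, LOC4332757 and LOC4334507 with -1.28, LOC9270703 with -1.13, LOC4336870 with -1.11 and LOC4324973 with -1.05. If the numbering of the RNA integrity listed in the methods is that of the arrays, WT3 and OE3 shared the highest value. That value lay above those of WT1, WT2 and OE1. OE2 shared the lowest value with WT1, so the sides of the gap overlapped through OE2 alone. The part of RNA integrity in the members' order was not tested.

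Several clusters of a gene did not always behave alike. LOC4347727 had a member cluster with a gap of 0.70 and another with -0.13, LOC4351944 had 0.68 and -0.12, and LOC9266196 had 0.60 and 0.06. For these 3 genes membership rests on 1 of their clusters. No pair of member genes stood next to each other in the gene order of the reference table.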

How the data were processed

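From total RNA of each sample, labelled and hybridised to 1 array, the authors made log2 signals with RMA in Affymetrix Expression Console, which corrects background, equalises the distributions of the arrays and summarises probes. The deposited log2 values entered every step without further change, and background correction was not repeated here. Versions of that software are not given in the sources used here. Members were found by their gap, and genes were named from the platform table, updated by gene ID through the NCBI table of assembly ASM3414082v1. Chromosome positions in that table served only to order genes, and sequences were not used here. Symbols are known for few genes, and a cyclin known only by locus number would stay among the members.

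Genotype differences were fitted over all 41770 clusters with limma 3.58.1 in R 4.3.3 (lmFit, eBayes, Benjamini-Hochberg), without block or covariate, and checked on simulated signals. The replicates are biological per the labels. Replicate numbers are not said to pair samples, so equal numbers were not treated as pairs. Deviations from the genotype means correlated at 0.345, -0.11 and 0.206 between the arrays numbered 1, 2 and 3. Correlations between unlike numbers are not given, so these values do not decide on pairing.

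Members, lists and families were chosen with earlier results of these data known. Named genes are the 12 members with the widest gap, up to 4 per function list, 3 on each side of the threshold, any past the genotype test (none), the 5 with the highest mean and genes with several member clusters. Other names were chosen after their values were seen: all members with a symbol, their families, members where WT3 was not lowest, the extremes of the genotype difference, members called in an alternative and genes with a further cluster. The 14 function lists drawn up first were patterns for product descriptions, which the tables do not hold, and matched 1 member, MCM3. Alternatives were repeated quantile normalization, cyclic loess, leaving out dim clusters, 1 cluster per gene, other gaps, array weights, an intensity trend, a replicate block, RIN, one-way ANOVA and each array left out. Figures were drawn with matplotlib 3.10.9.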

Additional observations from a re-analysis of the deposited data

How the results depend on the processing

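The number of members was 96. It was 93 after repeated quantile normalization, of which 86 were shared with the 96, 97 after cyclic loess (88 shared), 95 without the dimmest clusters and 93 with 1 cluster per gene. A gap of at least 0.5 log2 gave 157 and one of at least 1 gave 13. With 1 array left out the count ranged from 104 to 251, since fewer arrays make the rule easier to meet. It was 251 without OE1, 215 without OE3, 166 without WT2 and 158 without OE2. Members called lower in overexpression numbered 0, and 2 with array weights (LOC9270703 with -1.01 and LOC4334507 with -1.11, against 0.292% of all clusters), where the cause was not tested. With 1 array left out they ranged from 0 to 8, the 8 without WT3, where 0.469% of all clusters were called. Members called higher, and members at an adjusted p under 0.05, numbered 0 by limma and the methods' test under all alternatives run. The alternatives for single members past the genotype threshold gave no value, since none passed. The median genotype difference of -0.017 was -0.51 with array weights and 0.12 with RIN, and ranged from -0.58 without WT3 to 0.29 without WT1, so that its sign rests on single arrays. With the replicate number as a block it stayed -0.017, as the block leaves it by construction, and 0 members were called.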
